A study of Caenorhabditis elegans with 2 samples.

Results

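The Rab, Arf, Arf-like (arl), Vps and sorting nexin (snx) genes of Caenorhabditis elegans encode much of the machinery that moves membrane vesicles between the compartments of a cell. Their promoters were examined for binding of PHA-4, a FoxA transcription factor known for specifying pharyngeal identity and for roles in the gut. Members were the protein-coding genes whose symbol began with rab, arf, arl, vps or snx followed by a number, without rab-3, vps-15 and vps-34, which left 64 of 19973 protein-coding genes. They comprised 19 rab, 3 arf, 6 arl, 29 vps and 7 snx genes. The study was a ChIP-seq experiment on whole L3 larvae of pooled males and females of strain OP37, with 2 biological replicates that form 1 group. OP37 carries unc-119(ed3) III and the insertion wgIs37, which holds pha-4 tagged with eGFP, so every sample shares the same alleles. The antibody entry of the labels reads pha-4 and the sample description reads eGFP-pha-4, so which part of the protein the antibody bound is not settled. Whole animals mix all cell types, and a peak cannot be assigned to a tissue. No other strain, stage or untagged sample was analysed here, no RNA was measured, and the sources used here do not give the read depth.

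A gene was counted as having a promoter peak when a summit fell in its promoter window, which began 1000 bp before a transcript's 5' end and ended 200 bp after it. Peaks came from the authors' optimal list of 7847 peaks, whose height (the authors' signal value, on a scale that is not stated) ran from 41.4 to 862 with a median of 84.7. Rab and Arf proteins are small GTPases that switch between an active form on a membrane and an inactive form in the cytosol, and they mark compartments and recruit coats, motors and tethers. Vps proteins, named from yeast mutants that missort vacuolar proteins, build ESCRT complexes that bud vesicles into endosomes, tethers such as HOPS and CORVET that dock membranes before fusion, and retromer, which with sorting nexins returns cargo from endosomes. In the worm these pathways serve every cell, and they have been studied most in the intestine and in coelomocytes, the scavenger cells of the body cavity.

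The 101 bp around the summit of the highest promoter peak are printed for up to 2 members of each family, to show examples of the DNA described below. They were taken in order of height, passing over windows that overlap an annotated untranslated region (rab-18) and windows on a chromosome whose sequence is not printed here (such as rab-5, snx-3 and vps-51). The 8 printed windows are therefore not a sample of all 34: CGCG occurs in 7 of them but in 11 of the 26 windows not printed, and a forkhead core in 1 of them and in 4 of the others. Each is read 5' to 3' on the strand of the gene from the RefSeq genome of build WBcel235, the same assembly as ce11. Capitals mark a match to a forkhead core, to a GA repeat or to an E-box on either strand. The forkhead core was searched as TNTTTNC with A or G at each N. The GA repeat was searched as GAGAGA, and the E-box was searched as CACGTG. Runs of cg pairs are visible in vps-60, rab-7, snx-13, arf-1, rab-1, snx-1 and arf-6, whereas vps-32.1 has few, and capitals appear only in rab-1 and arf-6.
vps-60, chrV:8606437-8606537, minus strand: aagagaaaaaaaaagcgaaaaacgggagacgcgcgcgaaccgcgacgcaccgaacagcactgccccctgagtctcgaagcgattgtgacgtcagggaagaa
vps-32.1, chrII:6588997-6589097, plus strand: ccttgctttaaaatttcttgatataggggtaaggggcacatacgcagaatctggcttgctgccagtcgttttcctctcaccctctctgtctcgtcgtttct
rab-7, chrII:11967680-11967780, minus strand: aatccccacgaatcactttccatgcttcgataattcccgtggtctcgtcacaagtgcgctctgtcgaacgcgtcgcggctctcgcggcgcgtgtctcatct
rab-1, chrV:1264499-1264599, minus strand: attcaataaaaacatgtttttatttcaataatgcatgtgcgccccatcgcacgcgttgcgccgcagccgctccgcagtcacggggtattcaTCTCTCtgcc
snx-13, chrIV:17087621-17087721, minus strand: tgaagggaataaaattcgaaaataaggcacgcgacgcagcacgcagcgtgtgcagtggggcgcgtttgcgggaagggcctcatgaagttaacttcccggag
snx-1, chrX:1128641-1128741, plus strand: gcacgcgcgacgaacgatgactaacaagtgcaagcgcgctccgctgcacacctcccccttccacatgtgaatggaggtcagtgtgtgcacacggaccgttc
arf-1, chrIII:5715666-5715766, plus strand: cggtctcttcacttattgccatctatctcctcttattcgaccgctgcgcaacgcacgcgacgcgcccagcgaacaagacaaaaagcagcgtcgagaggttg
arf-6, chrIV:16946909-16947009, plus strand: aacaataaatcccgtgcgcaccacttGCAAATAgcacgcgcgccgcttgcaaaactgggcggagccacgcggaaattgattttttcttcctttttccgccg

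PHA-4 peaks lay at the promoters of 34 of the 64 members, or 53.1% with a 95% Wilson interval of 41.1 to 64.8%. Among all protein-coding genes the share was 24.0%, from 4796 genes. The families did not share this evenly. All 3 arf genes had a promoter peak, as did 5 of 7 snx genes (71.4%, interval 35.9 to 91.8%), 16 of 29 vps genes (55.2%, interval 37.5 to 71.6%) and 10 of 19 rab genes (52.6%, interval 31.7 to 72.7%). None of the 6 arl genes had one, for which the interval reached 39.0%. The intervals of the families overlap except those of the arf genes (43.9 to 100%) and the arl genes, and they cover counting error only. With 1 group of 2 replicates the design allows no test of a difference between families.

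**Figure D1:**
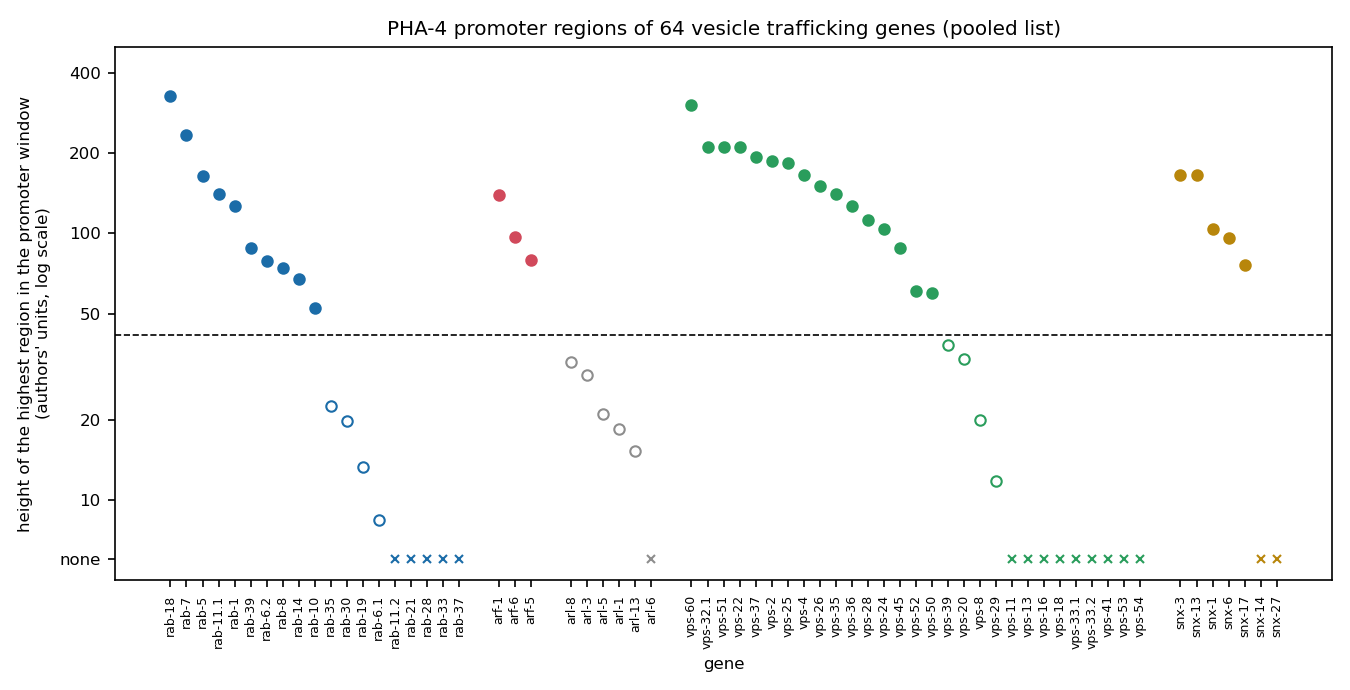
Height of the highest region in the promoter window of each of the 64 genes in the authors' pooled list, in the authors' units on a log axis, grouped by family from left to right as rab, arf, arl, vps and snx. Filled points are genes with an optimal peak, open points have a pooled region below the lowest optimal height of 41.4 (dashed line), and crosses have no pooled region in the window. The arl genes all lie below the line, and rab-18 at 327 and vps-60 at 302 stand highest.

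The highest peak of a member was on the whole somewhat higher than that of other genes, by an amount that depended on the window. Over the 34 genes the median height of the highest promoter peak was 133 (lowest 52.6, highest 327), beside 104 over all 4796 genes with a promoter peak. The median was 158 in the vps genes, 107 in the rab genes, 104 in the snx genes and 97.2 in the arf genes. The ratio of the medians was 1.28, but it was 1.04 with a window of 500 bp upstream and 100 bp downstream and 1.07 when each summit was given to the nearest 5' end only. Of the 34 members, 26 had a peak above the median of the optimal list (76.5%), beside 62.7% of all genes with a promoter peak. No interval was computed for that share, and the difference was not tested. When only the 3923 peaks of greater height were kept, those 26 of 64 members made 40.6%, beside 15.1% of all protein-coding genes.

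The replicates gave like shares when each was read from its own list. Within the 7847 highest regions of replicate 1, 37 members had a promoter region (57.8%), beside 24.6% of all protein-coding genes. Within the 7847 highest regions of replicate 2 there were 35 (54.7%), beside 24.0%. Of the 34 members with an optimal peak, 31 were called in both replicates. The exceptions were rab-39 and vps-52, missed in replicate 1, and rab-14, missed in replicate 2. Each of the arf and snx counts was the same in both replicates as in the optimal list.

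To compare heights between replicates, each was divided by the median over the optimal peaks in that replicate, which was 28.4 in replicate 1 and 57.6 in replicate 2. Relative heights of the 34 peaks correlated between replicates with a Pearson r of 0.692 on log10 values and a Spearman rho of 0.756, as a description across peaks of 2 libraries. The coefficient of variation was under 20% in 23 of the 34. It was smallest for vps-51, whose peak was 2.42 times the median in replicate 1 and 2.44 times in replicate 2. It was largest, at 85.1%, for rab-14, a Rab of the trans-Golgi and endosomes, with a height of 54.7 (rank 1400 of 30000) in replicate 1 and 27.5 (rank 8526) in replicate 2. The rab-14 peak thus stood at 1.92 times the median in one library and 0.48 times in the other.

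**Figure D2:**
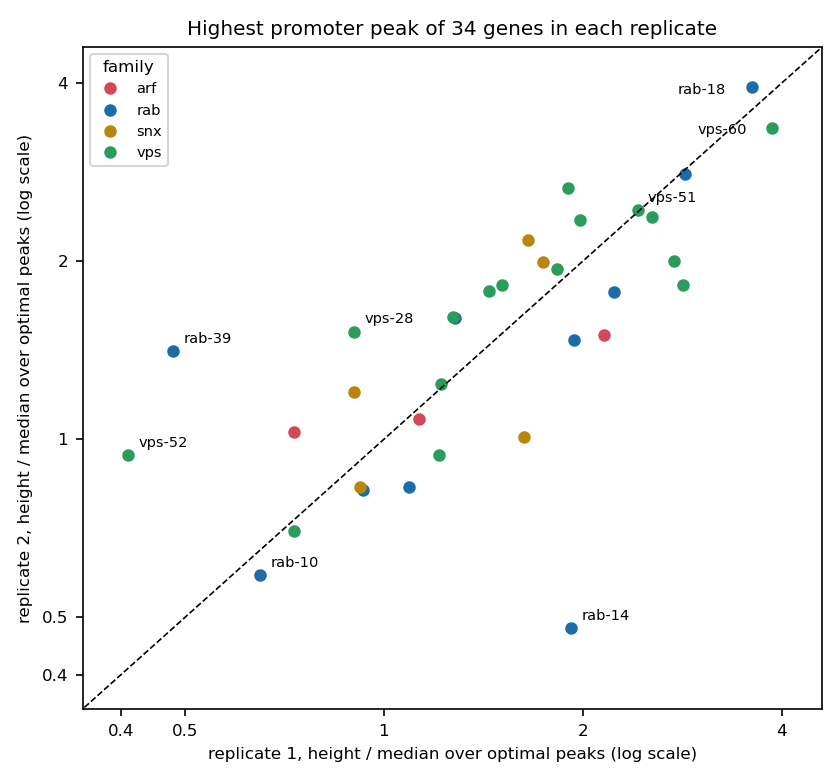
Height of the highest promoter peak of 34 genes in replicate 1 (horizontal) and replicate 2 (vertical), each divided by that replicate's median over the optimal peaks, on log axes. Points are genes coloured by family and the dashed line marks equal values. Most points lie along the line, while rab-14 lies far below it and rab-39 and vps-52 far above it.

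Among the Rab GTPases of the endoplasmic reticulum, the Golgi and secretion, 5 of 10 had a promoter peak. The interval of 23.7 to 76.3% includes the 24.0% of all protein-coding genes. Those with a peak were rab-18, rab-1, rab-39, rab-6.2 and rab-8, while rab-6.1, rab-19, rab-30, rab-33 and rab-37 had none. The highest was at rab-18, a Rab of the endoplasmic reticulum and lipid droplets. Its peak (chrIII:1080640-1080884) had a height of 327 and ranked 138 of 7847, with heights of 103 in replicate 1 and 226 in replicate 2 and a relative height of 3.77 ± 0.228 (SD, n = 2). The summit lay 11 bp downstream of the rab-18 start, in its 5' untranslated region, and also within the promoter windows of kbp-4, a kinetochore gene, and par-2, a cell polarity gene. The peak of rab-1, the Rab of transport from the endoplasmic reticulum to the Golgi, had a height of 127, and that of rab-8, a Rab of polarised secretion, 74.1.

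The RAB-6 paralogues of the Golgi differed in their promoters. The rab-6.2 peak (chrX:17221837-17222176) had a height of 79.0 in the optimal list, 31.1 in replicate 1 and 48.0 in replicate 2, for a relative height of 0.96 ± 0.184 (SD, n = 2). At rab-6.1 the highest pooled region in the window had a height of 8.38 and ranked 28688 of 30000, with 4.95 in replicate 1 and 7.92 in replicate 2. Both libraries thus ranked rab-6.2 above rab-6.1, and rab-6.1 was under the lowest optimal height. An optimal peak did reach rab-6.1 when the window was widened to 2000 bp upstream.

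Of the Rab GTPases of endosomes and lysosomes, 5 of 8 had a promoter peak: rab-5, rab-7, rab-10, rab-11.1 and rab-14. The interval was 30.6 to 86.3%, beside 24.0% of all protein-coding genes. Without one were rab-11.2, rab-21 and rab-35. The highest belonged to rab-7, the Rab of late endosomes and lysosomes (chrII:11967613-11967865), at 234 in the optimal list, 80.9 in replicate 1 and 162 in replicate 2. Relative to the medians these were 2.85 and 2.81, so the replicates agree closely. That summit lay 799 bp upstream of rab-7 and only 186 bp upstream of its neighbour W03C9.5, and it also fell in the window of mex-1. A second, low peak of height 42.2 lay 54 bp upstream of rab-7 itself, and replicate 1 had no region matching it.

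The peak of rab-5, the Rab of early endosomes (chrI:9307589-9307864), had a height of 164, with 63.3 in replicate 1 and 102 in replicate 2 and a relative height of 2.00 ± 0.323 (SD, n = 2). It lay 710 bp upstream, in the window of nmat-2 as well. The recycling Rab gene rab-11.1 carried a peak of height 140 (55.2 in replicate 1 and 84.4 in replicate 2) 683 bp upstream, which the ribosomal protein gene rpl-7 shared. A second rab-11.1 peak of height 105 lay 94 bp upstream. Its paralogue rab-11.2 had no region in its window in the pooled list or in either replicate's list. The lowest of all 34 belonged to rab-10, a Rab of basolateral recycling in the worm intestine, at 52.6 (18.4 in replicate 1 and 34.1 in replicate 2). The rab-10 value was still above the lowest optimal height of 41.4. The remaining rab gene, rab-28, a Rab linked to cilia, had no region in its window in any list.

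All 3 Arf genes had a peak, at moderate heights and with relative heights from 0.88 to 1.82. That of arf-1, which recruits coats to Golgi membranes (chrIII:5715612-5715723), had a height of 139, with 61.0 in replicate 1 and 86.4 in replicate 2. Its summit lay within the gene, in an intron, 399 bp upstream of an internal 5' end. The arf-6 peak (chrIV:16946789-16947128) had a height of 97.2, with 32.0 in replicate 1 and 62.3 in replicate 2. ARF-6 acts at the plasma membrane and recycling endosomes. The arf-5 peak (chrIV:7982071-7982410) had a height of 79.5, with 20.8 in replicate 1 and 59.5 in replicate 2. In the order of relative heights arf-1 at 1.82 ± 0.458 stood above arf-6 at 1.10 ± 0.032 and arf-5 at 0.88 ± 0.214 (SD, n = 2 each). In replicate 2 arf-6 and arf-5 were close, at 1.08 and 1.03.

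None of the Arf-like genes reached the threshold in the pooled list. For arl-1 and arl-5 of the Golgi and arl-8, which links lysosomes to kinesin, the highest pooled regions had heights of 18.5, 21.0 and 32.9. Of the genes that act in cilia, arl-3 had 29.4, arl-13 had 15.2, and arl-6 had no region in any list. For arl-8, replicate 1 had a region of height 23.8 at rank 5045, 638 bp upstream, and replicate 2 had one of height 28.9 at rank 8156, 72 bp upstream. For arl-3, a region of height 34.2 ranked 6965 in replicate 2, 811 bp upstream. Each replicate therefore placed 1 arl gene within its 7847 highest regions, but not the same gene.

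Nearly all ESCRT genes among the members, which are only those named vps, had a promoter peak. ESCRT complexes act in sequence on endosomes, from ESCRT-I and ESCRT-II, which gather ubiquitinated cargo, to ESCRT-III filaments that cut the vesicle neck and the ATPase VPS-4 that takes them apart. Both ESCRT-I members (vps-28 and vps-37), all 3 ESCRT-II members (vps-22, vps-25 and vps-36) and 5 of 6 members of the ESCRT-III and VPS4 list (vps-2, vps-4, vps-24, vps-32.1 and vps-60) had a promoter peak. Together these were 10 of 11 (90.9%, interval 62.3 to 98.4%), against 24.0% of all genes and 24 of the 53 other members (45.3%). All 10 were among the 3923 peaks of greater height. Their median height was 185. In replicate 1 all 11 were called and in replicate 2 again 10. The grouping was made with results of these data known, so the share describes these genes only.

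The highest of the ESCRT peaks was at vps-60, an ESCRT-III relative (chrV:8606329-8606664), with a height of 302 and rank 193. Its heights were 110 in replicate 1 and 193 in replicate 2, ranks 193 and 213, and its relative height was 3.61 ± 0.36 (SD, n = 2). It lay 359 bp upstream of vps-60 and in the window of no other protein-coding gene. The peak of vps-32.1, which encodes the main ESCRT-III filament subunit (chrII:6588927-6589176), had a height of 211, with 54.0 in replicate 1 and 153 in replicate 2. That summit lay 661 bp upstream of vps-32.1 and 392 bp upstream of icd-1, and a second peak of height 54.8 lay 105 bp upstream of vps-32.1. Heights at vps-22, vps-37, vps-2, vps-25, vps-4, vps-36, vps-28 and vps-24 ran downwards from 210 to 104. The vps-25 peak stood 35 bp upstream of an internal 5' end, within an intron of the longer transcripts, and a further peak of height 108 lay 10 bp upstream of another vps-25 5' end.

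The 1 ESCRT member without an optimal peak, vps-20, was below the lowest optimal height of 41.4. Its pooled region had a height of 33.7 and ranked 9168, with its summit 23 bp downstream of a 5' end. The region ranked 7720 in replicate 1 (height 15.1) and 13860 in replicate 2 (height 16.3). Just outside the threshold, and nearest to it of all members, was vps-39 with a pooled height of 38.0 at rank 8379, 11.8 in replicate 1 and 21.3 in replicate 2.

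None of the 8 HOPS and CORVET genes had an optimal peak, and the interval of 0 to 32.4% includes the 24.0% of all protein-coding genes. These tethers share a core and link late endosomes and lysosomes (HOPS) or early endosomes (CORVET). The genes were vps-8, vps-11, vps-16, vps-18, vps-33.1, vps-33.2, vps-39 and vps-41. In the pooled list only vps-39 and vps-8 (height 20) had a region in the window at all. The replicates' own lists differed from this. A region lay 98 bp upstream of vps-18 in replicate 1 (height 18.6, rank 6464) and 91 bp upstream in replicate 2 (height 43.2, rank 5582), yet neither the pooled nor the optimal list had a region in its window. Such a loss was uncommon: of 6127 regions of replicate 1's 7847 highest with a summit within 200 bp of one of replicate 2's, 85 (1.39%) had no pooled summit within 200 bp. At vps-33.1 a region of height 55.5 ranked 1353 in replicate 1 with none in the window in replicate 2, and at vps-33.2 a region of height 24.2 ranked 4962, again in replicate 1 only. The count for these genes was thus 3 of 8 (37.5%) in replicate 1 and 1 of 8 (12.5%) in replicate 2, and why these regions are missing from the pooled list was not tested.

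**Figure D3:**
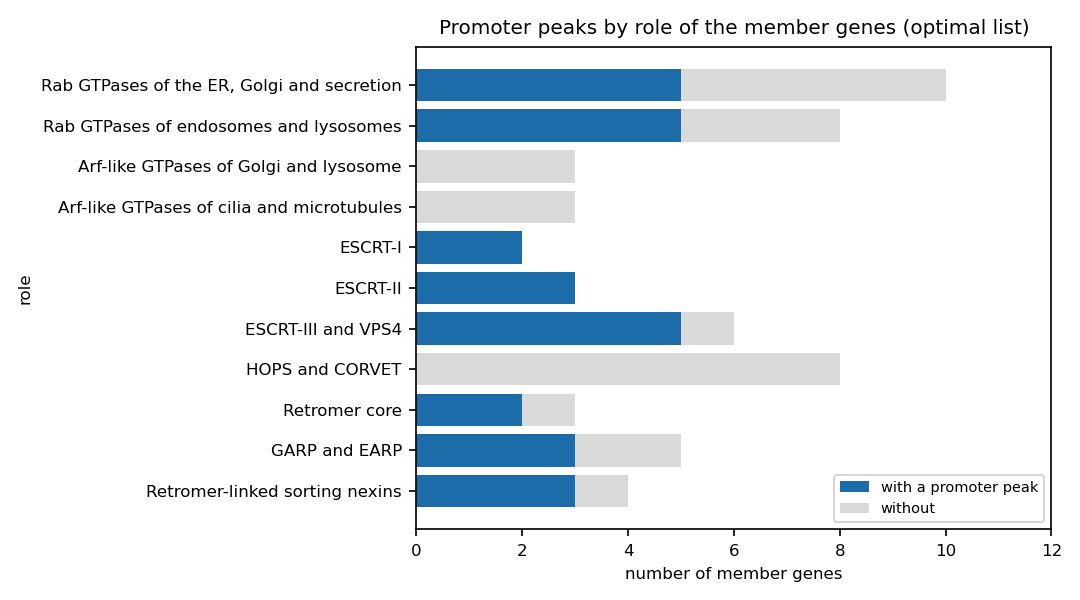
Number of member genes with an optimal peak in the promoter window (blue) and without one (grey), for each role list. All of the ESCRT-I and ESCRT-II bars and 5 of 6 genes of the ESCRT-III and VPS4 bar are blue, while the HOPS and CORVET bar and both Arf-like bars are entirely grey.

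Retromer and its partner nexins had peaks at 5 of 7 genes. Of the retromer core, vps-35 (height 140) and vps-26 (height 150) had a promoter peak, 129 and 4 bp upstream, and vps-29 did not, and the interval for 2 of 3 genes, 20.8 to 93.9%, includes the 24.0% of all genes. Of the sorting nexins that work with retromer, snx-1, snx-3 and snx-6 had one and snx-27 did not, with an interval of 30.1 to 95.4%. The snx-3 peak (chrI:9064598-9064764), at a gene needed in worms for recycling of the Wnt carrier MIG-14, had a height of 166, with 46.8 in replicate 1 and 125 in replicate 2. The snx-13 peak (chrIV:17087564-17087735) was almost as high at 165, with 49.6 in replicate 1 and 115 in replicate 2. The relative heights of snx-3 and snx-13, 1.91 ± 0.368 and 1.87 ± 0.176 (SD, n = 2 each), differed by less than the spread between replicates. At snx-1, which has a membrane-bending BAR domain, the peak (chrX:1128521-1128860) had a height of 104, with 46.2 in replicate 1 and 57.9 in replicate 2. Peaks of snx-6 (95.8) and snx-17 (75.9) were lower and lay farthest before a 5' end of their gene, at 860 and 877 bp. The snx-6 summit lay within the gene, in an intron, and upstream only of an internal 5' end. The snx-14 gene had no promoter peak.

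The GARP and EARP complexes tether vesicles from endosomes at the Golgi and at recycling endosomes. Of their 5 genes, vps-50, vps-51 and vps-52 had a promoter peak and vps-53 and vps-54 did not. The interval for 3 of 5 genes, 23.1 to 88.2%, includes the 24.0% of all genes. The vps-51 peak (chrI:5807463-5807645) had a height of 211, with 68.8 in replicate 1 and 141 in replicate 2. Its summit lay 235 bp upstream of vps-51 and 183 bp upstream of lin-35, the retinoblastoma homologue on the other side. The peaks of vps-52 (60.9) and vps-50 (59.7) were among the lowest of the members. Relative to the medians, the vps-52 peak was 0.41 in replicate 1 and 0.94 in replicate 2. Of the other 2 vps genes, vps-45, a partner of endosomal SNAREs, had a peak of height 88.2 and vps-13, a lipid transfer protein gene, had none in any list.

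As medians and counts, position and sharing of the peaks differed more between the families than between the members and other genes. The families hold only 3 to 16 such genes each, and these differences were not tested. The highest peak of the 34 members had a median distance of 268 bp upstream, beside 223 bp over all genes with a promoter peak. The families differed here, since the median was 514 bp in the rab genes and 142 bp in the vps genes. For 17 of 34 members (50%) the summit of the highest peak also fell in the promoter window of another protein-coding gene, and the interval of 34.1 to 65.9% includes the 40.2% of all genes with a promoter peak. In the rab genes this was 8 of 10, in the vps genes 6 of 16, in the snx genes 2 of 5 and in the arf genes 1 of 3. Of the 17 shared summits, 8 lay nearest to the member's own 5' end and 9 nearest to the other gene's. Those 9 were at rab-1, rab-7, rab-8, rab-11.1, vps-2, vps-22, vps-32.1, vps-51 and arf-6. The other genes included rpl-7 beside rab-11.1, tiar-2 beside vps-2, snr-1 beside snx-13, C39F7.5 beside rab-1, rad-54.L beside snx-3 and Y116A8C.9 beside arf-6. A summit in the windows of 2 genes cannot be given to either gene from these data. At rab-7 and vps-22 the nearer gene, W03C9.5 or C27F2.9, is on the same strand, and the summit lay upstream of both starts. When each summit was given to the nearest 5' end only, 28 members kept a peak (43.8%), beside 19.3% of all genes.

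**Figure D4:**
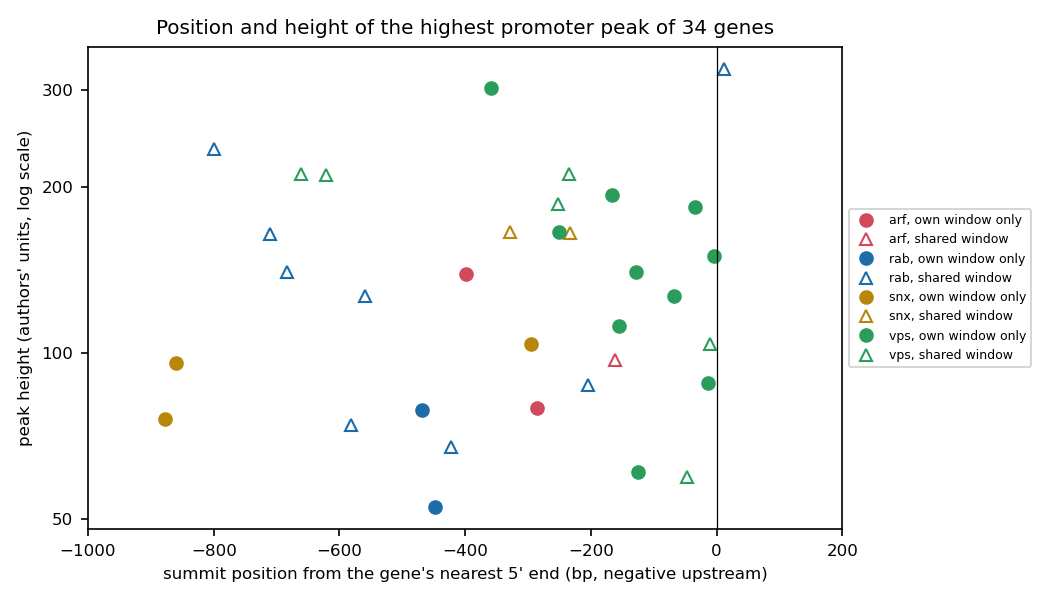
Summit position from the nearest 5' end of the gene (bp, negative upstream) and height on a log axis in the authors' units, for the highest promoter peak of 34 genes. Filled circles lie in the window of the member only and open triangles also in the window of another protein-coding gene. Most rab points are open triangles at a distance from the start, while most vps points are circles within 300 bp of the start.

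Genes without a peak more often followed closely behind another gene on the same strand. Worm genes are often transcribed together in operons, in which only the first gene has the promoter of the unit. Of the 64 members, 17 began under 500 bp behind the end of a protein-coding gene on the same strand, with overlapping genes not counted. Of these, 4 had a promoter peak of their own (23.5%), against 30 of the other 47 (63.8%). Among all protein-coding genes the shares were 17.5% of 3598 such genes and 25.4% of the remaining 16375. The 4 with a peak were arf-1, vps-26, vps-28 and vps-35. The 13 without were arl-1, arl-5, arl-13, rab-21, rab-28, rab-33, vps-8, vps-11, vps-16, vps-29, vps-41, vps-53 and vps-54. Such spacing does not by itself define an operon, and transcripts were not examined here.

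Each run of such genes was then followed to its first gene. The first gene had a promoter peak for 8 of the 17 members (47.1%), beside 39.9% of all 3598 genes placed behind a neighbour. Among all 2969 such genes without their own peak it had one for 36.9%. Among the 13 such members it had one for 6 (46.2%). These were vps-11 (first gene npp-19, height 157), vps-41 (Y34B4A.2, height 77.2), vps-29 (ZK1128.1, height 85.2), rab-33 (taf-11.3, height 196), rab-21 (cyn-11, height 72.5) and arl-5 (panl-3, height 81.4). The first genes before vps-8, vps-16, vps-53, vps-54, arl-1, arl-13 and rab-28 had none. Among the HOPS and CORVET genes, 4 of 8 were thus behind a same-strand neighbour, beside 18.0% of all protein-coding genes. For 2 of the 4 the peak lay at the first gene. Of the 11 ESCRT members, 1, vps-28, was so placed. The ESCRT gene vps-22 overlaps its same-strand neighbour C27F2.9 and was therefore not counted. The part of gene spacing in the difference between these groups was not tested.

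**Figure D5:**
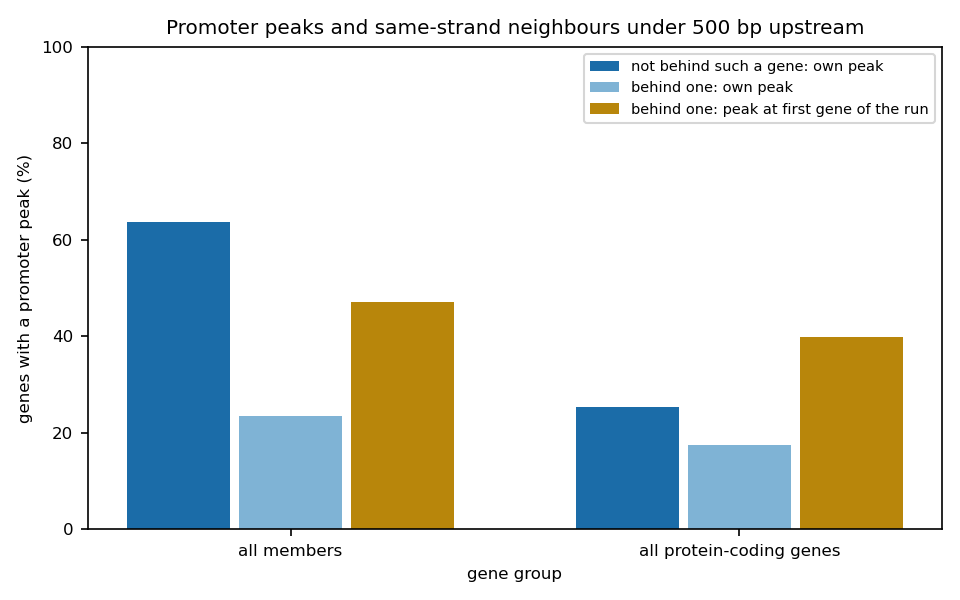
Percentage of genes with a promoter peak among the 64 members (left) and among all protein-coding genes (right). Bars show genes not closely behind a same-strand neighbour (dark blue), genes under 500 bp behind such a neighbour (light blue), and how often the first gene of the run had a peak (ochre). In the members the dark blue bar stands at 63.8% and the light blue bar at 23.5%, against 25.4% and 17.5% in all genes.

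The DNA under member summits held few matches to the forkhead core that FoxA proteins are known to bind. Windows of the rab and arf genes held more CG pairs in the median than those of all promoter peaks. A forkhead core lay within 50 bp of the summit of 5 of 34 member peaks (14.7%, interval 6.45 to 30.1%), beside 25.3% of all 4311 promoter peaks. These 5 were vps-37, vps-24, snx-3, snx-17 and arf-6, and none of the 10 rab summits had one. A GA repeat lay there in 4 (11.8%, against 21.8%), at vps-25, rab-1, snx-6 and vps-45, with 15 overlapping matches in the vps-25 window. An E-box lay there in 1, at arf-5 (2.94%, against 4.29%). Each interval includes the share over all promoter peaks.

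Mean GC content of the 101 bp windows was 46.9% over the 34 members and 41.9% over all promoter peaks. The median number of CG pairs per window was 8 against 5, but among peaks of greater height it was 6 against 5. By family it was 9 in the rab, 11 in the arf, 5.5 in the vps and 3 in the snx windows. The letters CGCG, counted after the sequences had been seen, occurred in 18 of 34 member windows (52.9%). The share was 30.9% over all promoter peaks and 32.3% over those that are the highest of a gene. Among peaks of greater height CGCG occurred in 13 of 26 member windows, beside 37.8% of all promoter peaks of greater height. No interval was computed for the CGCG shares, and the differences were not tested. By family CGCG occurred in all 3 arf windows, 6 of 10 rab, 7 of 16 vps and 2 of 5 snx windows. At the extremes, the rab-14 window held 15 CG pairs and the snx-6 window none. Matches of letters are a description and do not place a binding site.

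Genes that work beside the members had a promoter peak about as often. In 9 lists of coats, adaptors, SNAREs, tethers and regulators, 70 of 126 genes had one (55.6%, interval 46.8 to 63.9%). For this and for each list below, the share of all protein-coding genes was 24.0%. The median height of the 70 was 121. The highest of them all was at the SNARE gene vamp-8, 140 bp upstream, with a height of 482 and rank 27. Among SNAREs it was followed by syx-7 (239) and syx-5 (181). Of the 22 genes listed as SNAREs and NSF, 12 had a promoter peak. The lists were matched by gene name only. Whether bet-1, which is among the 10 genes of this list without a peak, encodes a SNARE was not checked. The 126 genes include bet-1 as well. Clathrin and its adaptors had 12 of 16, led by dpy-23 (294), the AP-2 mu subunit, apb-1 (255) and aps-1 (250). The exocyst, which tethers secretory vesicles at the plasma membrane, had 6 of 8, led by sec-3 (299), sec-15 (189) and exoc-7 (185). Among 36 regulators of Rab and Arf proteins, 18 had one, led by rbg-3 (300), tbc-14 (278) and rbg-1 (261), all GTPase-activating proteins.

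Of 12 genes of endocytosis and ESCRT-0 partners, 8 had a promoter peak, led by eea-1 (215), rme-8 (173) and rme-1 (165). The COPII coat, which forms vesicles at the endoplasmic reticulum, had 5 of 8, led by sec-24.1 (231), sec-12 (83.8) and sar-1 (80.9). The COPI coat of the Golgi had 4 of 7, led by copz-1 (187), copg-1 (109) and copd-1 (95.5). The COG complex, a Golgi tether, had 3 of 7, with cogc-2 (218), cogc-6 (75.4) and cogc-3 (74.8). The COG interval of 15.8 to 75.0% includes the 24.0% of all protein-coding genes. TRAPP, the exchange factor for RAB-1 that also tethers vesicles, had 2 of 10, trpp-10 (149) and trpp-4 (52.1). The TRAPP share of 20% was thus the lowest of the 9 lists, and its interval of 5.67 to 51.0% includes 24.0%.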

How the data were processed

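ChIP-seq peak lists of 2 biological replicates were used on build ce11; ce10 lists were not used. The deposited lists give each region the authors' signal (its height), on a scale that is not stated. Per the manifests deposited by the authors, 30000 regions were called for each replicate against the same control file, 30000 on the pooled replicates, and the optimal list was chosen from these for reproducibility. The optimal peaks were the 7847 highest pooled regions, so 7847 regions were also taken per replicate. No aligner, peak caller or depth is given in the sources used here. The depth per sample is thus unknown, and intervals cover counting of genes only.

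Summits were placed on Ensembl release 115 genes (WBcel235), and motifs were read from the RefSeq genome; all 107 start codons of the members read ATG. Summits in different lists were matched within 200 bp. Members and lists were chosen with earlier results of these data known. Named were every member, full values for the 3 highest of each family, paralogue pairs with 1 bound, the extremes of replicate spread, those nearest the threshold, genes sharing a named summit, and up to 3 genes per list. Member values outside that rule, the naming of bet-1, and the CG counts and same-strand runs were chosen after values were seen. Names sec-13, trpp-2, cogc-7, tbc-4 and tbc-15 matched no gene, and 126 genes of the other lists did. The alternatives were other windows, peak sets and assignments. Placement and matching were tested on simulated data. Tables were made in pandas 2.3.3 and NumPy 2.4.6 under Python 3.11.15, intervals in SciPy 1.17.1 and plots in Matplotlib 3.10.9.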

Additional observations from a re-analysis of the deposited data

How the results depend on the processing

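Of 99 alternative values, 28 moved: shares by over 1.5 times, or to or from 0, and the 2 ratios by more than the SD between replicates (0.0471 and 0.0343). The other 71 moved less; among them the arf share fell to 66.7% with the peaks of greater height. The member share over the share of all genes, 2.21 in the optimal list, was 2.70 with the peaks of greater height, 2.26 with the nearest 5' end only, 2.11 with whole regions, 2.13 with a 2000 bp window, and 2.28 to 2.35 when 1 replicate was left out. The ratio of median heights, 1.28, was 1.09 with the peaks of greater height, 1.07 with the nearest 5' end only, 1.04 with a window of 500 bp upstream and 100 bp downstream, 1.35 with whole regions and 1.22 to 1.24 without 1 replicate. The greater height of member peaks thus nearly vanished under 3 alternatives. With the peaks of greater height the rab share was 31.6%, that of other trafficking genes 36.5% and the E-box share 0.0%. With the 500 bp window the snx share was 42.9% and the shared-peak share 29.0%; it is 0.0% by construction with the nearest 5' end only. Leaving out 1 replicate gave an arl share of 16.7% and, in an alternative added after seeing the data, a HOPS and CORVET share of 12.5 to 37.5%. Within 25 and 100 bp of the summit the GA repeat share was 5.88 and 23.5% (13.5 to 20% within 50 bp without 1 replicate), the forkhead core share 8.82 and 26.5%, and the E-box share within 100 bp 5.88%. The cause of these moves was not tested. ESCRT and VPS4 shares, also added after seeing the data, ran from 72.7 to 100%. No paired analysis was possible because there is 1 group. Read depth is unknown, so a gene without a peak is only below this threshold.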

Other observations

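With a narrower limit of 200 bp for a same-strand neighbour, chosen after the data were seen, 13 of 64 members lay behind another gene and 3 of them had a promoter peak (23.1%), against 31 of the other 51 (60.8%). Over all protein-coding genes the shares were 14.3% of 1893 and 25% of 18080. The first gene of the run had a peak for 7 of the 13 members and for 50.6% of all 1893 genes. The upstream neighbour lay on the opposite strand for 21 of 34 members with a peak (61.8%, interval 45.0 to 76.1%), beside 58.2% of all protein-coding genes with a promoter peak. It did so for 9 of 30 members without (30%, interval 16.7 to 47.9%), beside 41.2% of all genes without. Both intervals include the share over all genes.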
